A study of Mus musculus with 4 samples.

Results

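The collagen genes of mouse mammary fat were followed here across cell types and across a day of cold. Collagens are secreted or membrane proteins built from 3 chains wound into a triple helix, and each chain has its own gene. Members were the genes whose symbol reads Col, a number, a and a number, with at least 50 unique molecular identifiers (UMIs, the tags that count single RNA molecules) over the 4 count matrices. That gave 37 of the 44 genes with such a symbol, among 31053 genes in the feature table. The other 7 genes had 26 UMIs (Col26a1), 22 (Col25a1), 20 (Col19a1), 8 (Col24a1), 6 (Col2a1), 3 (Col10a1) and 1 (Col22a1). Totals of the members ran from 52 UMIs for Col6a4 to 238270 for Col3a1, with 160074 for Col1a2 and 131894 for Col1a1.

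Fibrillar collagens (types I, III, V, XI and XXVII) form or line the fibrils that give tissue its tensile strength, and in fat they are made mainly by fibroblasts and adipose progenitors. Type VI forms beaded filaments around cells, type IV forms the network of basement membranes under epithelium and endothelium, and types XV and XVIII sit in or beside basement membranes and carry glycosaminoglycan chains. FACITs (fibril-associated collagens with interrupted triple helices) bind the fibril surface, and a few members span the cell membrane.

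The data are 10x Chromium 3′ v3 single-cell RNA libraries of the stromal vascular fraction (everything but the mature fat cells) of the fourth inguinal fat pad, which holds the mammary gland. All mice were C57BL/6 and 8 weeks old, with no genetic change named in the labels. The cold group, 2 libraries, came from mice held at 4 °C for 24 h, and the room-temperature group, also 2 libraries, from mice held at room temperature for 24 h. The sources used here do not give the room's temperature, the sex of the mice or how many animals went into a library. The p-values therefore describe no more than the spread from library to library, which may be technical.

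The libraries held 3871 to 6339 barcodes and 35198164 to 55160902 UMIs, and 2971 to 5232 cells each were kept, 15197 in all. The cells formed 40 clusters, of which 36 took the name of one of 14 cell classes from marker genes; each name means cells like that type by those markers. Any 2 libraries shared 5 to 10 barcodes. Fibroblasts and adipose progenitors, called fibroblasts from here on, numbered 720 and 468 in the cold libraries and 1330 and 348 at room temperature. They carried the marker Pdgfra at 401 and 451 CPM in cold and 403 and 345 CPM at room temperature, against 1.66 CPM in T cells. CPM are UMIs per 1000000 UMIs of a class in a library; with 3′ tags of unequal capture, levels are compared between cell classes or libraries and not between genes. A change is the log2 fold change of cold over room temperature from edgeR's quasi-likelihood test on UMIs summed per class and library, and a gene is called at a Benjamini-Hochberg adjusted p under 0.05 over all genes tested in that class. With 2 libraries a group, the smallest p an exact permutation test could give is 0.333.

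Fibroblasts held most of the collagen RNA in every library. They held 79.8% and 81.4% of the family's UMIs in the cold libraries and 95.1% and 88.1% at room temperature. Of the 37 members, 12 had their highest mean level in fibroblasts, among them all chains of types I and III, Col5a1, Col5a2, Col6a1, Col6a2, Col6a3 and Col14a1. Basal/myoepithelial cells, the contractile outer layer of the mammary duct, were highest for another 12, including the transmembrane collagen Col17a1, the anchoring-fibril collagen Col7a1 and the 3 chains of type IX. Vascular endothelium was highest for 5 (Col4a2, Col15a1, Col13a1, Col28a1 and Col4a3) and Schwann cells, the glia of nerves, for 4 (Col5a3, Col27a1, Col11a1 and Col20a1). Luminal hormone-sensing cells were highest for 3 (Col8a1, Col8a2 and Col11a2) and pericytes with smooth muscle for Col18a1.

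Some of those ranks separate classes by less than the spread between libraries. Col4a1 stood at 527 and 883 CPM in the cold libraries and 1230 and 952 CPM at room temperature in basal cells. In vascular endothelium it stood at 623 and 608 CPM in cold and 792 and 1211 CPM at room temperature, so the ranges of both classes overlap. Col5a3 in Schwann cells, at 323 and 143 CPM in cold and 434 and 285 CPM at room temperature, likewise overlaps its range in fibroblasts. The ranks also pool all fibroblasts. In fibroblast cluster 7, described below, Col15a1 stood at 180 and 273 CPM in cold and 515 and 706 CPM at room temperature. Col5a3 there had 312 and 567 CPM in cold and 827 and 1050 CPM at room temperature. Col18a1 had 85.03 and 172 CPM against 512 and 459 CPM. At room temperature these genes lay above the class named highest, and Col4a2, at 430 to 842 CPM, overlapped endothelium. Col4a1 in cluster 7 had 757 and 1296 CPM in cold and 1153 and 1551 CPM at room temperature, which overlaps its range in basal cells.

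**Figure D1:**
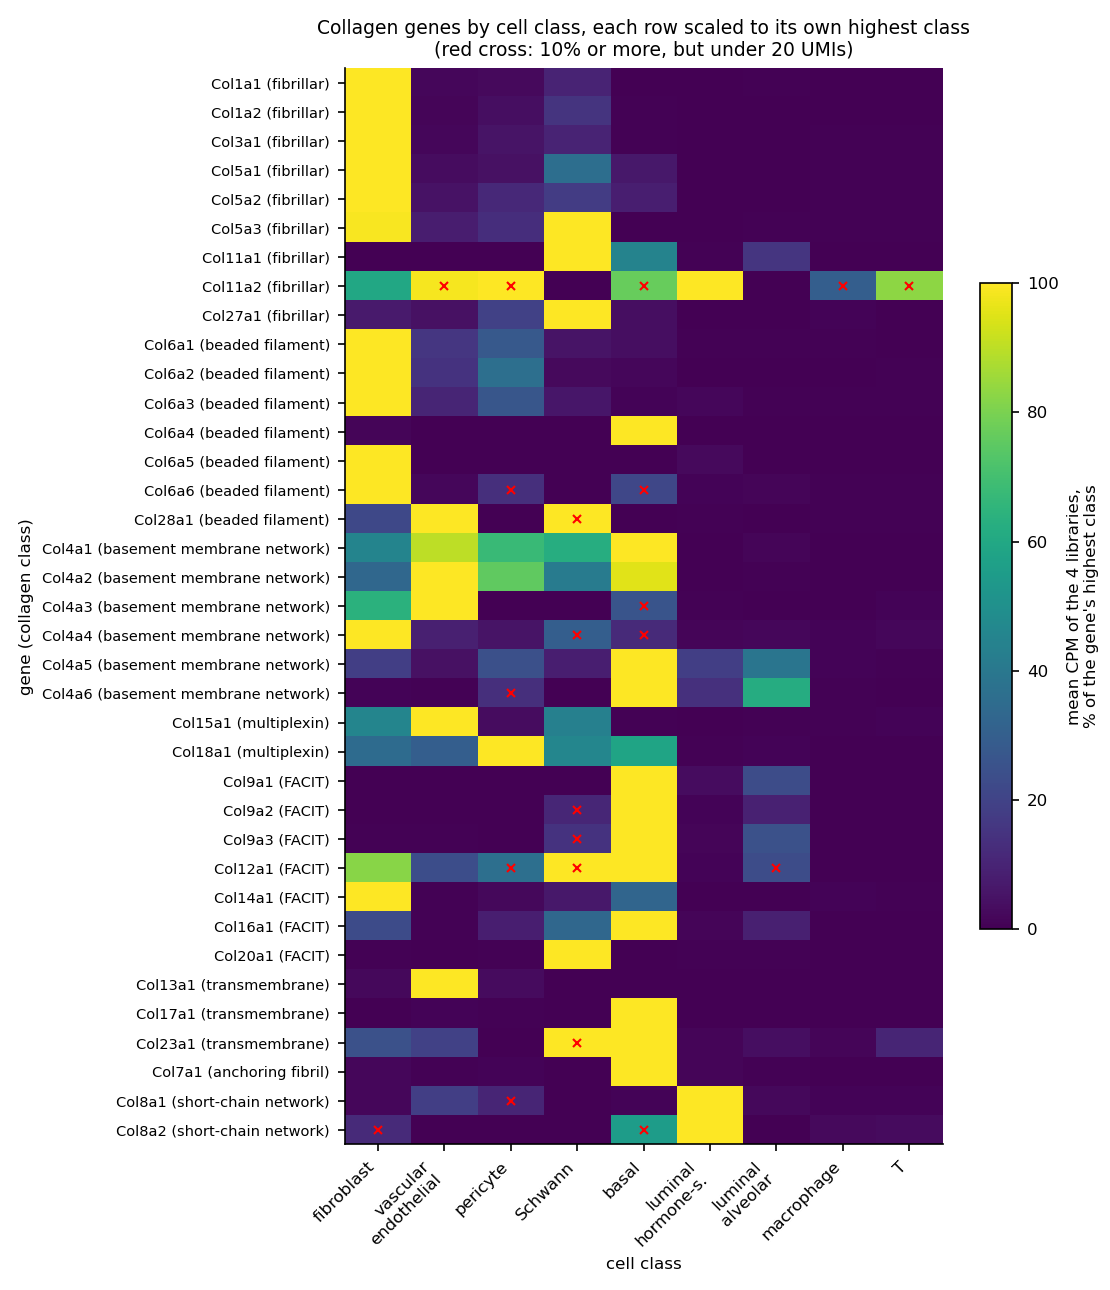
Mean CPM of each of the 37 collagen genes in 9 cell classes, as a percent of the gene's own highest class, over the 4 libraries. Red crosses mark squares of 10% or more that rest on under 20 UMIs; yellow squares lie mostly in the fibroblast and basal columns, where 12 genes each were highest.

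In fibroblasts the family was lower in cold across its classes. All 37 members together made up 0.798% and 1.21% of fibroblast UMIs in the cold libraries and 3.23% and 3.52% at room temperature. That is 66.9 and 93.6 collagen UMIs per fibroblast in cold and 291 and 386 at room temperature. Of 27 members that passed the filter on low counts, 16 were called lower and 0 higher, where 1.67% of all 11613 genes tested were called lower. DESeq2 called 18 lower and 0 higher. The share of all genes that DESeq2 called is not given, so its count is not read as a result about the collagens. The other 10 members did not pass the filter in this class. Both cold libraries lay below both room-temperature libraries for 23 of the 27, against 29.2% of all genes tested, and above them for 1, Col28a1, against 21.9%. The median change was -1.14 for the 27 members and 0.00085 for all genes tested.

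Which genes were called depended on single libraries, mostly on cold replicate 1. Without cold replicate 1, only Col18a1 of the 16 stayed called, with changes from -2.94 to -0.64 and edgeR adjusted p from 0.0428 to 0.262. Without cold replicate 2, 7 stayed called (Col3a1, Col1a1, Col5a2, Col6a2, Col5a3, Col15a1 and Col18a1), with changes of the 16 from -3.17 to -0.96. Without room-temperature replicate 1, 15 stayed called and Col16a1 was lost at -0.70. Without room-temperature replicate 2, 12 stayed called and Col6a1 (-1.05), Col5a1 (-1.03), Col4a2 (-0.89) and Col13a1 (-2.71) were lost. All 16 kept their direction in each of these fits.

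The fibrillar genes held most of the family's UMIs in fibroblasts. Col3a1 (ENSMUSG00000026043, chromosome 1, 45311538 to 45349706, plus strand, GRCm38), the chain of type III collagen, stood at 1715 and 3228 CPM in cold fibroblasts and 11911 and 13635 CPM at room temperature. The groups are far apart, although the cold libraries also differ from each other. It averaged 2471 ± 1070 CPM in cold libraries and 12773 ± 1219 CPM in room-temperature libraries (SD over the 2 libraries of a group), and it fell by 2.34 on the log2 scale (SE 0.29, edgeR adjusted p = 0.0192). Col1a1 (ENSMUSG00000001506, chromosome 11, 94936224 to 94953042), whose chain pairs with that of Col1a2 in type I collagen, stood at 1314 and 2206 CPM in cold and 6449 and 6988 CPM at room temperature. It fell by 1.90 (SE 0.24, edgeR adjusted p = 0.0199). Col1a2 (ENSMUSG00000029661, chromosome 6, 4504814 to 4541544) stood at 2500 and 3224 CPM in cold and 7644 and 7279 CPM at room temperature and fell by 1.35 (SE 0.18, edgeR adjusted p = 0.0211).

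Type V collagen joins type I in fibrils and limits their width, and its 3 chains were all called lower. Col5a2, which lies 24615 bases from Col3a1 on the opposite strand, stood at 277 and 453 CPM in cold and 1018 and 1051 CPM at room temperature (log2 change -1.47, SE 0.21, edgeR adjusted p = 0.0262). Col5a1 stood at 218 and 332 CPM in cold and 561 and 699 CPM at room temperature (log2 change -1.16, edgeR adjusted p = 0.0388). Col5a3 stood at 77.1 and 141 CPM in cold and 379 and 579 CPM at room temperature (log2 change -2.11, edgeR adjusted p = 0.0223). Col27a1, another fibrillar collagen, was scarcer, at 4.31 and 5.79 CPM in cold and 18.6 and 32.5 CPM at room temperature, and fell by 2.26 (SE 0.32). In each of these genes the cold libraries lay below the room-temperature libraries. Col11a1 and Col11a2 were below the count filter in fibroblasts.

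Promoter windows of Col3a1 and Col1a2 are shown because both genes were called lower and hold a large share of the family's UMIs. They run from 250 bases before to 50 after the start site of the RefSeq table (GRCm38.p6), 5′ to 3′ on the gene's own strand. Capitals mark matches to the CCAAT box, the TATAAA box or the GGGCGG box, searched on both strands, so that a match on the other strand shows as the reverse complement. No 2 matches overlap in the windows shown. The windows are chr1:45311288-45311587, plus strand, for Col3a1 and chr6:4505368-4505667, plus strand, for Col1a2.
Col3a1: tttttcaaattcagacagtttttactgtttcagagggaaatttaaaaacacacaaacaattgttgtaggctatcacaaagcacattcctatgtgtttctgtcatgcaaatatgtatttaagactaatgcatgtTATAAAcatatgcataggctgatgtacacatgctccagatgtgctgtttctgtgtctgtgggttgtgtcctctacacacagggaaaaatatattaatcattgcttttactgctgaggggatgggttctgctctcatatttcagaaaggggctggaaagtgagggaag
Col1a2: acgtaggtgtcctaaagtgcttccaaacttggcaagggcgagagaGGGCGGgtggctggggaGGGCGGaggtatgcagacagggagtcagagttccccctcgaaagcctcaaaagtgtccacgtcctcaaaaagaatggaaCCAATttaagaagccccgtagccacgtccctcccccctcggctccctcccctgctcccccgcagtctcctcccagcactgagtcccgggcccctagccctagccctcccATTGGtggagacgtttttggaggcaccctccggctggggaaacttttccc
Col3a1 held 1 TATAAA and no match to the other motifs, while Col1a2 held 2 CCAAT and 2 GGGCGG matches and no TATAAA. Of all 32851 promoter windows of that table, 37.4% held CCAAT, 13.6% TATAAA and 35.7% GGGCGG. Among the 34 windows of the 31 members with an entry, the shares were 35.3%, 11.8% and 64.7%. A match is a string of letters and not a shown binding site.

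Type VI, the pericellular filament collagen, was lower in its 3 main chains. Col6a1 (chromosome 10, 76708792 to 76726168) stood at 405 and 548 CPM in cold fibroblasts and 987 and 1082 CPM at room temperature (log2 change -1.08, SE 0.16, edgeR adjusted p = 0.0281). Its neighbour Col6a2 stood at 169 and 227 CPM in cold and 554 and 652 CPM at room temperature (log2 change -1.57, SE 0.16, edgeR adjusted p = 0.0159). Col6a3, from whose chain a fragment called endotrophin is cut, stood at 325 and 428 CPM in cold and 776 and 921 CPM at room temperature (log2 change -1.13, SE 0.16, edgeR adjusted p = 0.0242). The groups do not overlap in any of the 3. Col6a6, a later-described chain, was also called, at 16.4 and 21.2 CPM in cold and 46.3 and 37.7 CPM at room temperature (log2 change -1.16). Col6a5 did not pass at 1.66 and 2.48 CPM in cold and 3.09 and 3.14 CPM at room temperature, and Col28a1 did not pass at a log2 fold change of 0.35 (SE 0.46).

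The multiplexins, types XV and XVIII, were both called lower in fibroblasts. Col18a1 (ENSMUSG00000001435, chromosome 10, 77052178 to 77166548, minus strand), whose C-terminal fragment is endostatin, stood at 25.9 and 32.8 CPM in cold and 147 and 164 CPM at room temperature. These CPM rest on 156 and 119 UMIs in cold and 1760 and 625 UMIs at room temperature. It fell by 2.37 (SE 0.13, edgeR adjusted p = 0.00714) and was called with each library left out in turn, from -2.49 to -2.23. Col15a1 (ENSMUSG00000028339, chromosome 4, 47208161 to 47313167) stood at 32.5 and 37.8 CPM in cold and 141 and 234 CPM at room temperature. It fell by 2.36 (SE 0.23, edgeR adjusted p = 0.0159), and its call was lost without cold replicate 1 (-2.28, edgeR adjusted p = 0.092). The windows at chr10:77166481-77166780, minus strand, one of the starts listed for Col18a1, and chr4:47207762-47208061, plus strand, are shown for this pair with the same marking.
Col18a1: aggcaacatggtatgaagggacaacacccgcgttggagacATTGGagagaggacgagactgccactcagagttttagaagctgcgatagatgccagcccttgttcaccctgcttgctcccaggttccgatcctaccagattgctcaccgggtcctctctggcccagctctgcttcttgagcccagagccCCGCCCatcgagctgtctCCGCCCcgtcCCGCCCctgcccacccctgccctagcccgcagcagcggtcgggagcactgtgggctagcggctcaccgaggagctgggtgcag
Col15a1: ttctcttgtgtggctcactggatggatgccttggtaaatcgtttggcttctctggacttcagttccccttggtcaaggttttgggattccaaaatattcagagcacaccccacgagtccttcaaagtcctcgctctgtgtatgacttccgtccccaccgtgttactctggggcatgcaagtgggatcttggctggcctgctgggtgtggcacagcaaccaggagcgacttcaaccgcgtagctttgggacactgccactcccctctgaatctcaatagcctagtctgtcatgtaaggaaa
Col18a1 held 1 CCAAT and 3 GGGCGG matches in this window, and Col15a1 held no match to any of the 3 motifs.

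Type IV, the basement membrane network, gave 1 call. Col4a1 and Col4a2 lie head to head on chromosome 8 with start sites 21 bases apart, and their chains form the same trimer. Col4a1 stood at 239 and 302 CPM in cold fibroblasts and 428 and 647 CPM at room temperature and did not pass (log2 change -0.95, SE 0.20, edgeR adjusted p = 0.0627). Without room-temperature replicate 1 it passed at -1.18 (edgeR adjusted p = 0.0114). Col4a2 stood at 102 and 144 CPM in cold and 228 and 330 CPM at room temperature and was called (log2 change -1.14, SE 0.21, edgeR adjusted p = 0.0445). Both genes lay lower in cold in all pairs of libraries, and their adjusted p-values fall just on opposite sides of the threshold. The minor chains did not pass: Col4a5 had 12.4 and 27.8 CPM in cold and 41.3 and 36.9 CPM at room temperature (edgeR adjusted p = 0.141). Col4a4 overlapped between groups, at 35.3 and 40.0 CPM in cold and 37.8 and 25.1 CPM at room temperature (log2 change 0.24, SE 0.21), and Col4a3 had a change of 0.14 (SE 0.42). The windows of Col4a1 (chr8:11312777-11313076, minus strand) and Col4a2 (chr8:11312555-11312854, plus strand) share 78 bases and are shown because the starts of 2 chains of the same trimer lie in that stretch.
Col4a1: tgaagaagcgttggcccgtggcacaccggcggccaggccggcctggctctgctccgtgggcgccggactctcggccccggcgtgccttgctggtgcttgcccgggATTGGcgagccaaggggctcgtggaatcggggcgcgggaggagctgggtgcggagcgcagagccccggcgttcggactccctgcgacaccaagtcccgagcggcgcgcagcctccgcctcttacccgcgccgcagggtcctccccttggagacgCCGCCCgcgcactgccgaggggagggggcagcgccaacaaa
Col4a2: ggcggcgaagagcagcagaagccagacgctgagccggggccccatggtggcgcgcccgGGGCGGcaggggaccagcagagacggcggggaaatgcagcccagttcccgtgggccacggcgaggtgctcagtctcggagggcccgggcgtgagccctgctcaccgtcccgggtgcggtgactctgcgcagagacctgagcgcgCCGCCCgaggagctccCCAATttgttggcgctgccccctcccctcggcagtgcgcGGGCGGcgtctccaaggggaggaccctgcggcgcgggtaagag
Col4a1 held 1 CCAAT and 1 GGGCGG match, and Col4a2 held 1 CCAAT and 3 GGGCGG matches.

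Among FACITs, Col16a1 was called, at 43.4 and 57.3 CPM in cold fibroblasts and 92.7 and 85.6 CPM at room temperature (log2 change -0.80, SE 0.14, edgeR adjusted p = 0.0438). Col14a1, a fibril-surface collagen, differed less, at 445 and 577 CPM in cold and 804 and 606 CPM at room temperature, and did not pass (log2 change -0.43, SE 0.19, edgeR adjusted p = 0.286). Col12a1 had 7.79 and 17.1 CPM in cold and 22.6 and 29.6 CPM at room temperature and did not pass (log2 change -1.08, edgeR adjusted p = 0.129). Of the transmembrane genes, Col13a1 had 4 and 3 UMIs in cold and 59 and 33 UMIs at room temperature and was called (log2 change -3.08, SE 0.52, edgeR adjusted p = 0.0378). Its level in fibroblasts, up to 8.64 CPM, is far below its 75.7 to 246 CPM in endothelium. Col23a1 (log2 change -1.02), the anchoring-fibril gene Col7a1 (-2.72, edgeR adjusted p = 0.0624) and the short-chain network gene Col8a1 (-1.05) did not pass. Col7a1 rests on 5 and 3 UMIs in cold and 46 and 32 UMIs at room temperature. Col13a1 and Col7a1 passed the filter on low counts through the room-temperature libraries alone, so that filter fixed their direction.

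**Figure D2:**
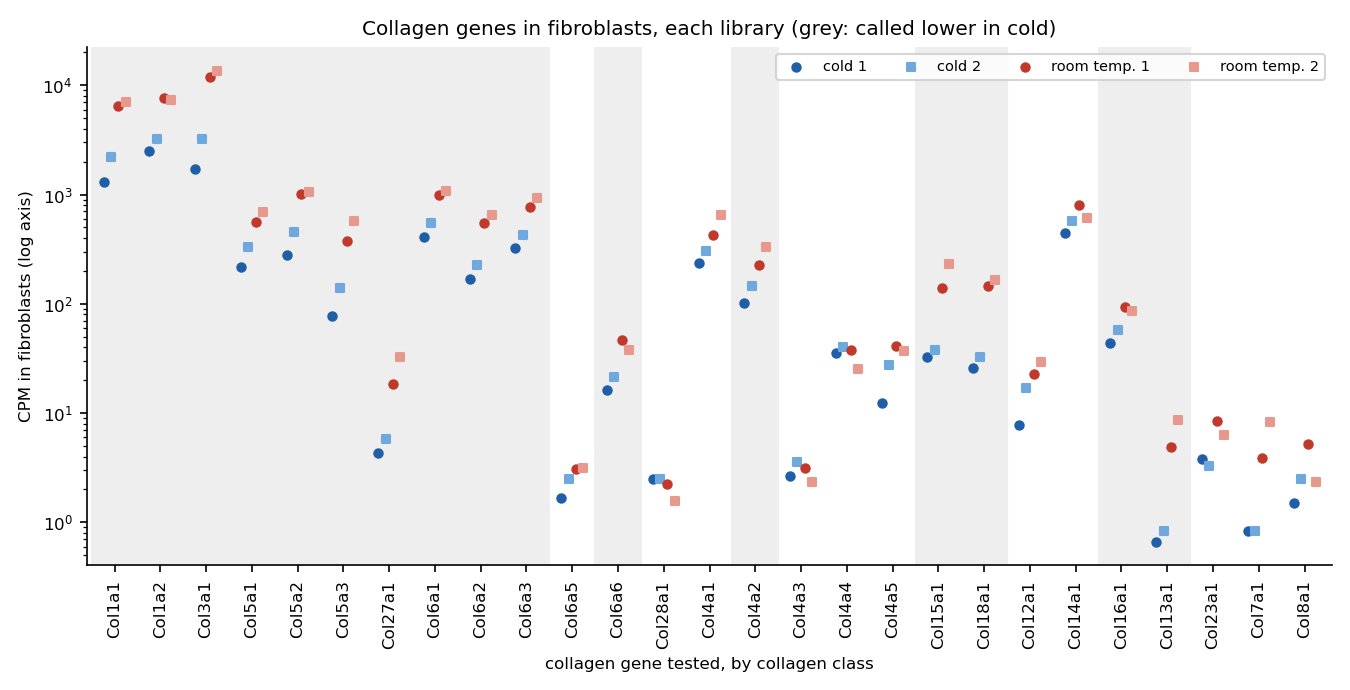
CPM of the 27 collagen genes tested in fibroblasts, on a log axis, one point for each library, with cold libraries left of room-temperature libraries. The 16 genes on grey were called lower in cold; Col4a4 and Col4a3 are among those whose groups overlap.

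Summed by collagen class, fibrillar genes reached 6107 and 9589 CPM in cold fibroblasts and 27982 and 30264 CPM at room temperature, a ratio of means of 0.269 and a log2 ratio of -1.89. Multiplexins summed to 58.3 and 70.5 CPM in cold and 288 and 397 CPM at room temperature, with a log2 ratio of -2.41. The beaded-filament sum had a log2 ratio of -1.24, the basement membrane sum -0.97 and the FACIT sum -0.51. No sum was tested, and in each of these 5 both cold libraries lay below both room-temperature libraries. In vascular endothelium the basement membrane sum was 1140 and 1124 CPM in cold and 1382 and 2068 CPM at room temperature (log2 ratio -0.61), and the multiplexin sum was 305 and 253 CPM in cold and 369 and 368 CPM at room temperature (log2 ratio -0.40). With the 4 fibroblast clusters weighted equally in every library, the fibroblast log2 ratio moved to -1.57 for multiplexins and to -0.46 for the basement membrane genes.

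**Figure D3:**
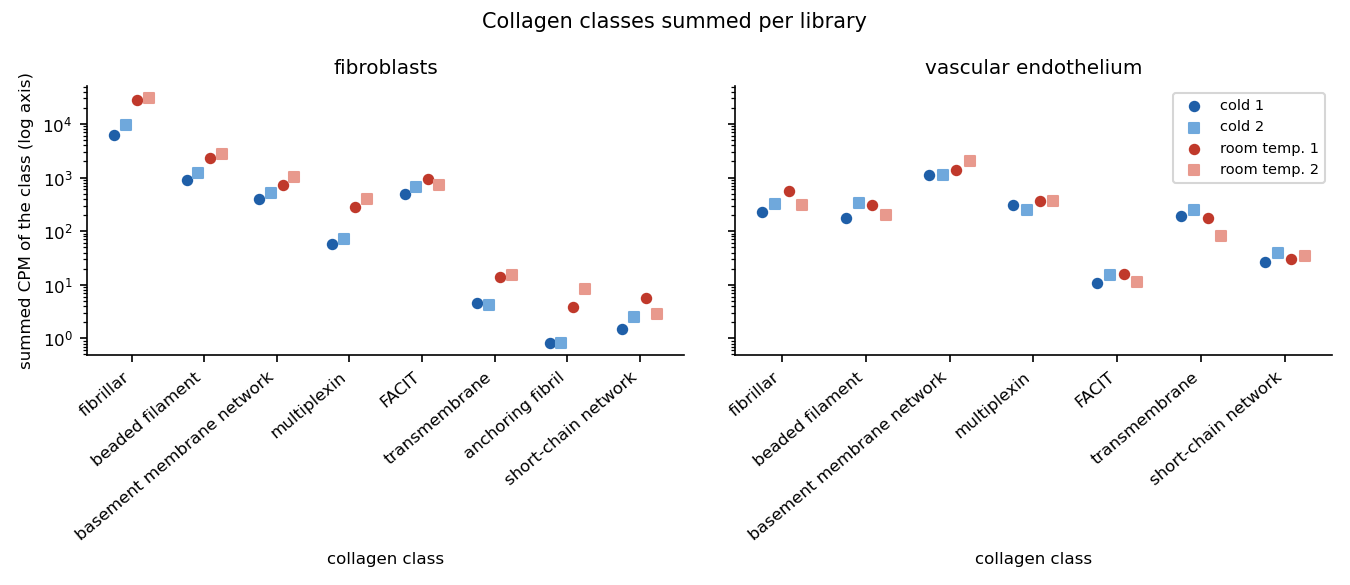
Summed CPM of each collagen class per library, on a log axis, in fibroblasts (left) and vascular endothelium (right). The cold points of the fibrillar and multiplexin classes lie well below the room-temperature points in fibroblasts, whereas in endothelium the beaded-filament points of both groups overlap.

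Fibroblasts are a mix of states with different collagen levels, so the genes were also tested within 4 fibroblast clusters built with all collagen genes left out. Cluster 7, led by Dcn, Postn, Lum, Sparc and Mmp3, had the highest collagen level, at 14889 and 22662 CPM of the family in cold and 55952 and 57547 CPM at room temperature. It held 19.03% and 14.5% of fibroblasts in cold and 25.6% and 31.9% at room temperature. Cluster 6, led by Dcn, Cxcl13, Clec3b and Igfbp6, had the lowest, at 6358 and 9361 CPM in cold and 21736 and 23360 CPM at room temperature, and held 46.1% and 29.1% of fibroblasts in cold and 20.2% and 16.4% at room temperature. These shares were not tested, since leading genes such as Lum and Sparc themselves differ between the groups.

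Within every cluster the family was lower in cold. In cluster 4, led by Dcn, Clec3b, Igfbp6 and Pi16, 9 of 19 members tested were called lower, against 0.783% of all genes, and in cluster 6 it was 11 of 21, against 1.69%. In cluster 7 it was 13 of 24, against 1.65%, and in cluster 12, led by Dcn, Serping1, Cxcl13 and Sfrp2, 9 of 19, against 0.486%. No member was called higher in any of the 4. Among the calls, Col13a1 in cluster 7 had 3 and 3 UMIs in cold and 58 and 33 at room temperature. It passed the filter on low counts through the room-temperature libraries alone. So did Col7a1 and Col12a1 in cluster 7 and Col27a1 and Col15a1 in cluster 6, none of them called there. The filter fixed the direction of these genes in those clusters. Of the 19 members tested in all 4, 7 were called in each: Col1a1, Col1a2, Col3a1, Col5a1, Col5a2, Col6a2 and Col6a3. Col3a1 in cluster 7 stood at 4657 and 7892 CPM in cold and 24211 and 24394 CPM at room temperature (log2 change -1.86), and across the clusters its change ran from -2.37 to -1.86. Cluster 12 holds 20 cells in room-temperature replicate 2, the fewest allowed. Without cold replicate 1 the calls were 5 in cluster 4 and 4 in cluster 12, and without room-temperature replicate 2 they were 14 in each, as they were in cluster 4 without room-temperature replicate 1.

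The values of Col4a1, Col4a2, Col5a3 and the multiplexins depended on the mix of clusters. Col4a1 and Col4a2 were called in none of the 4 clusters, with changes from -0.80 to -0.25 for Col4a1 and from -1.10 to -0.26 for Col4a2. Equal weights of the clusters gave a log2 ratio of -0.47 for Col4a1, where the whole class gives -0.99, and -0.49 for Col4a2, where the class gives -1.18. Col4a5 moved little, to -0.92 against -0.96. Col15a1 and Col18a1 were called in cluster 7 alone of the 4, where they had the most UMIs. In clusters 4, 6 and 12, Col15a1 changed by -1.55, -1.58 and -1.39, and Col18a1 by -1.22, -0.92 and -0.84. Col15a1 in cluster 4 rests on 8 and 1 UMIs in cold and 28 and 32 at room temperature, and its groups overlap. In cluster 6 the filter on low counts fixed the direction of Col15a1. The differences between clusters were not tested. In cluster 7, Col18a1 stood at 85.03 and 172 CPM in cold and 512 and 459 CPM at room temperature (log2 change -1.87, SE 0.28, edgeR adjusted p = 0.00909). Col15a1 stood at 180 and 273 CPM in cold and 515 and 706 CPM at room temperature (log2 change -1.34, SE 0.23, edgeR adjusted p = 0.0164). With equal weights the log2 ratio of Col15a1 was -1.45, against -2.42 in the class, and that of Col18a1 was -1.73, against -2.41. Col5a3 moved to -1.53 against -2.14, and its changes in the clusters ran from -2.41 to -1.01. Col3a1 moved less, to -2.03 against -2.37.

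**Figure D4:**
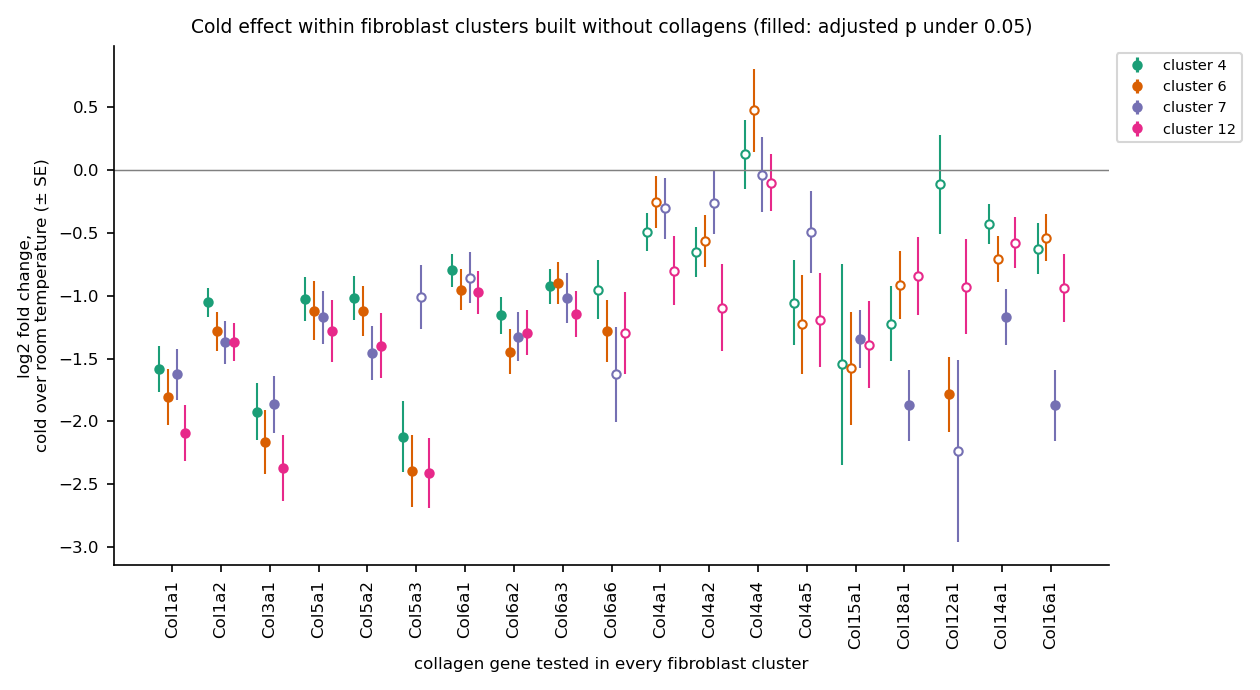
Log2 fold change of cold over room temperature, with SE, for the 19 collagen genes tested in all 4 fibroblast clusters; filled points passed an adjusted p of 0.05. Type I, III, V and VI genes lie below 0 in every cluster, while Col4a1, Col4a2 and Col4a4 have open points only.

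A list of genes that act on collagen, from its modification and folding to fibril assembly, receptors and uptake, was lower in part. Of 43 genes of this list tested in fibroblasts, 7 were called lower and 0 higher, against 1.67% of all genes called lower, with a median change of -0.36. Crosslinking and fibril assembly gave 3 of the calls among 10 genes, and receptors and uptake 1 among 7, with a median of 0.16. Sparc and Lum also lead cluster 7, whose share of fibroblasts was lower in cold, and the part of this was not tested. Serpinh1, the collagen-specific chaperone HSP47, stood at 560 and 487 CPM in cold and 1305 and 1545 CPM at room temperature (log2 change -1.40, SE 0.16, edgeR adjusted p = 0.0177). Sparc, a collagen-binding matrix protein, stood at 1652 and 2193 CPM in cold and 6332 and 6729 CPM at room temperature (log2 change -1.73, edgeR adjusted p = 0.0162). Lum, a proteoglycan of the fibril surface, had 624 and 678 CPM in cold and 1738 and 1521 CPM at room temperature (log2 change -1.29), and Mrc2, an endocytic collagen receptor, 73.3 and 87.4 CPM in cold and 167 and 143 CPM at room temperature (log2 change -0.92). Crtap, a part of the prolyl 3-hydroxylase complex, fell by 0.63. P3h1 of the same complex and Fmod were the other called genes. Fmod had 0.83 and 0.83 CPM in cold and 7.27 and 6.81 CPM at room temperature. It passed the filter on low counts through the room-temperature libraries alone, so that filter fixed its direction. Its place among the 7 calls therefore lends no support of its own.

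The prolyl 4-hydroxylases and lysyl hydroxylases gave no call. P4hb, a subunit of prolyl 4-hydroxylase, stood at 222 and 217 CPM in cold and 287 and 329 CPM at room temperature and did not pass (log2 change -0.44, edgeR adjusted p = 0.122). Its partners P4ha1 (log2 change -0.52) and P4ha2 (-0.37) and the lysyl hydroxylases Plod1 (-0.50), Plod2 (-0.93) and Plod3 (-0.05) did not pass either. Lox, which crosslinks fibrils, overlapped between groups at 164 and 211 CPM in cold and 179 and 150 CPM at room temperature (log2 change 0.22). Without cold replicate 1 none of the 7 calls remained by edgeR, with Serpinh1 at -1.54 and an adjusted p of 0.092, and without cold replicate 2 only 1 gene of the list was called.

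Some other values also differed between the groups in fibroblasts. Mean UMIs per fibroblast were 8379 and 7754 in cold and 8999 and 10975 at room temperature. Of 16 marker lists of other cell types, summed in fibroblasts, 4 were lower in both cold libraries, 3 were higher and 9 overlapped between the groups. Among all single genes tested in fibroblasts, 29.2% were lower and 21.9% higher in this way, so these counts do not stand out. Summed over 10 markers of pericytes and smooth muscle, of which 1 was at 0, fibroblasts had 138 and 167 CPM in cold and 211 and 230 CPM at room temperature. The 8 macrophage markers summed to 69.0 and 55.7 CPM in cold and 121 and 101 CPM at room temperature, and the 8 luminal alveolar markers to 517 and 643 CPM in cold and 444 and 398 CPM at room temperature. The 8 luminal hormone-sensing markers summed to 210 and 207 CPM in cold and 157 and 113 CPM at room temperature, and the 8 basal markers to 14.4 and 13.2 CPM in cold and 23.3 and 24.3 CPM at room temperature. The 8 dendritic markers, of which 2 were at 0, summed to 4.81 and 15.98 CPM in cold and 16.8 and 49.2 CPM at room temperature, and the 8 group 2 innate lymphoid markers, of which 2 were at 0, to 158 and 174 CPM in cold and 147 and 151 CPM at room temperature. The vascular endothelial markers overlapped, at 36.6 and 32.2 CPM in cold and 27.99 and 44.8 CPM at room temperature. The part of these differences in the collagen values was not tested.

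Outside fibroblasts, vascular endothelium gave no collagen call. Of 19 members tested, 0 were called by edgeR and DESeq2 gave none either, while 0.00985% of all 10156 genes were called in either direction. An unadjusted edgeR p under 0.05 was found for 4 of the 19 members and for 1067 of the 10156 genes. Col4a1 stood at 623 and 608 CPM in cold and 792 and 1211 CPM at room temperature (log2 change -0.68, SE 0.22, edgeR adjusted p = 0.385). Col4a2 stood at 500 and 497 CPM in cold and 571 and 849 CPM at room temperature (log2 change -0.49, SE 0.21), and Col15a1 at 220 and 172 CPM in cold and 272 and 316 CPM at room temperature (log2 change -0.56, SE 0.17). Col13a1, which spans the cell membrane, was higher in both cold libraries without passing, at 184 and 246 CPM in cold and 166 and 75.7 CPM at room temperature (log2 change 0.86, SE 0.35, edgeR adjusted p = 0.47). Col18a1 overlapped between groups, at 84.8 and 80.5 CPM in cold and 97.0 and 51.9 CPM at room temperature (log2 change 0.19, SE 0.27). Col6a1 overlapped too, at 76.4 and 184 CPM in cold and 132 and 88.2 CPM at room temperature. Col3a1, at 77.6 to 231 CPM, stayed under 5% of its fibroblast level and is noted as possible free RNA, RNA released by other cells.

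Pericytes and smooth muscle had 49 and 26 cells in cold and 59 and 24 at room temperature. Of 10 members tested, 0 were called by edgeR and 0 by DESeq2, against 0.0278% of all 3599 genes called in either direction. An unadjusted edgeR p under 0.05 was found for 2 of the 10 members and for 253 of the 3599 genes. Col18a1, highest in this class, stood at 250 and 291 CPM in cold and 310 and 201 CPM at room temperature (log2 change 0.12, SE 0.28). Col4a1 stood at 508 and 503 CPM in cold and 612 and 815 CPM at room temperature (log2 change -0.43, SE 0.26), and Col4a2 overlapped at 368 and 514 CPM in cold and 422 and 527 CPM at room temperature. Col3a1 had 239 and 154 CPM in cold and 282 and 897 CPM at room temperature (log2 change -1.46, SE 0.48, edgeR adjusted p = 0.516). Leaving out cold replicate 1 gave 1 call in this class, as did leaving out room-temperature replicate 1.

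Whether the cold effect itself differed from class to class was tested by an interaction term, with the library as a block. Against vascular endothelium, 2 of 26 members were called more negative in fibroblasts, where 0.226% of 11949 genes were. They were Col18a1 (difference -2.58, SE 0.31, edgeR adjusted p = 0.0164) and Col15a1 (-1.77, SE 0.24, edgeR adjusted p = 0.0256). Both differences use the pooled fibroblast class and so include its mix of clusters. With equal cluster weights the fibroblast log2 ratio was -1.45 for Col15a1, against -2.42 in the class, and -1.73 for Col18a1, against -2.41. The interaction was not tested with equal weights. The differences for Col3a1 (-1.46, edgeR adjusted p = 0.136), Col1a1 (-1.43) and Col4a1 (-0.28, SE 0.21, edgeR adjusted p = 0.691) did not pass. Without cold replicate 1 the differences of Col18a1 (-2.40, edgeR adjusted p = 0.0594) and Col15a1 (-1.50, edgeR adjusted p = 0.129) lost their calls, and without room-temperature replicate 1 there were 11 calls. Against pericytes, 3 of 25 members were called, where 0.306% of 11437 genes were called more negative in fibroblasts. Col18a1 (-2.53, SE 0.34, edgeR adjusted p = 1.14e-06) was called with each library left out, from -2.98 to -2.19. Col5a3 (-2.23, edgeR adjusted p = 0.0452) rests on 10 and 7 UMIs in cold pericytes and 10 and 7 at room temperature, and was lost without cold replicate 1 (-1.82), cold replicate 2 (-2.60) or room-temperature replicate 2 (-2.10). Its fibroblast log2 ratio was -1.53 with equal cluster weights, against -2.14 in the class. Col15a1 rests on 9 and 0 UMIs in cold pericytes and 0 and 0 at room temperature, so its fitted difference is no measure of size.

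**Figure D5:**
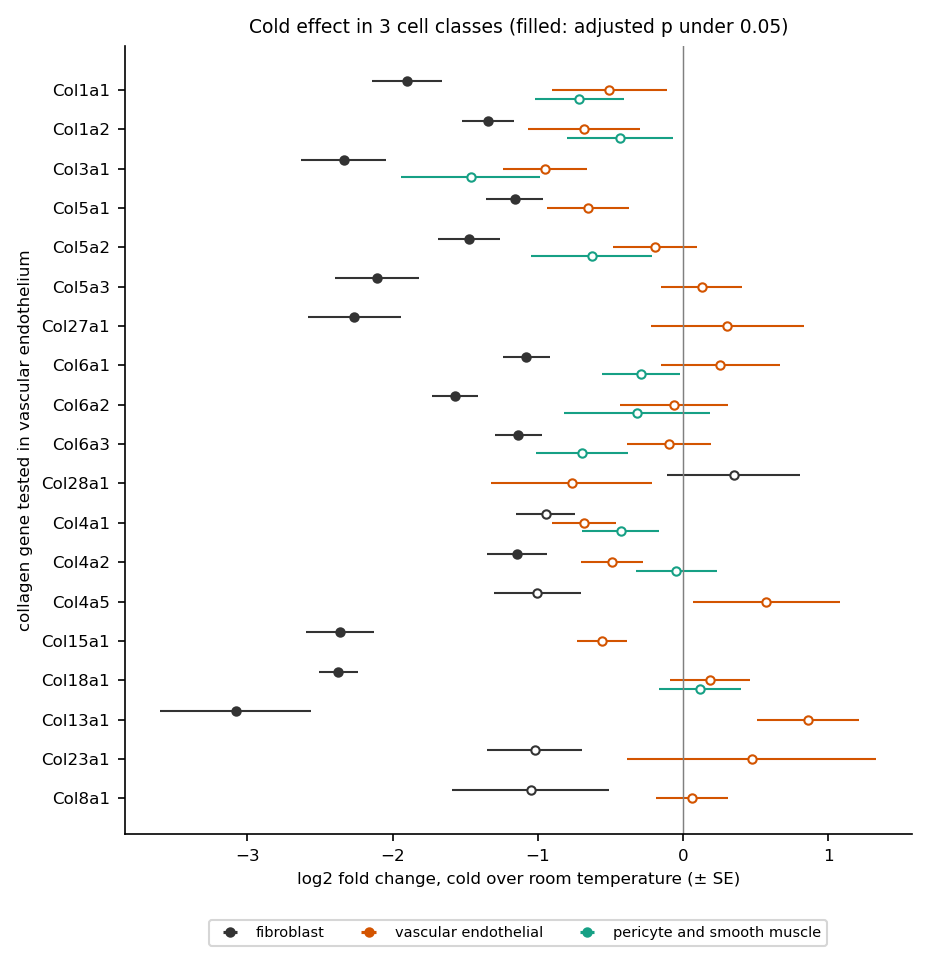
Log2 fold change of cold over room temperature, with SE, for the 19 collagen genes tested in vascular endothelium, shown for fibroblasts, vascular endothelium and, where tested, pericytes with smooth muscle. Filled points passed an adjusted p of 0.05, and all of them are fibroblast points; Col18a1 lies at -2.37 in fibroblasts and near 0 in the other classes.

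Basal/myoepithelial cells carried a set of collagens that were low in most other classes. They had 29 and 19 cells in cold and 53 and 94 at room temperature, so they were tested with a minimum of 15 cells per library, lowered from 20 after the cell numbers were known. Col17a1, the collagen of hemidesmosomes that fix epithelium to its basement membrane, stood at 313 and 272 CPM in cold and 346 and 290 CPM at room temperature (log2 change -0.04, SE 0.21). Col7a1, whose fibrils anchor that membrane to the stroma, stood at 99.3 and 172 CPM in cold and 249 and 257 CPM at room temperature (log2 change -0.81, SE 0.26, edgeR adjusted p = 0.131). Col9a1, Col9a2 and Col9a3, known best from cartilage, were lower in both cold libraries and not called, with Col9a2 at 150 and 181 CPM in cold and 247 and 300 CPM at room temperature (log2 change -0.65). Of the 19 members tested in basal cells, 11 were lower in both cold libraries and 1 was higher. The same shares over all genes were not computed for this class. Col16a1 stood at 178 and 300 CPM in cold and 341 and 410 CPM at room temperature (log2 change -0.58), and Col4a5 at 114 and 136 CPM in cold and 152 and 237 CPM at room temperature (log2 change -0.57).

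Of 19 members tested in basal cells, 2 were called lower, against 0.425% of all 6356 genes. Col11a1, a fibrillar collagen, stood at 21.1 and 41.7 CPM in cold and 126 and 87.9 CPM at room temperature (log2 change -1.65, SE 0.36, edgeR adjusted p = 0.0191). Its call was lost without cold replicate 1 (-1.23), room-temperature replicate 1 (-1.42) or room-temperature replicate 2 (-1.91). Col3a1, the other one, stood at 12.04 and 22.2 CPM in cold and 100.5 and 66.9 CPM at room temperature, under 5% of its fibroblast level, and is noted as possible free RNA; its call was lost without room-temperature replicate 1 (-1.90). Without cold replicate 2 there were 7 calls, and without room-temperature replicate 1 there were 0. Of the 8 basal markers, 3 were higher in both cold libraries, 2 were lower and 3 overlapped between the groups. The same shares over all genes were not computed for basal cells. Krt14 stood at 3442 and 2873 CPM in cold and 1262 and 1315 CPM at room temperature, and Trp63 at 232 and 217 CPM in cold and 281 and 273 CPM at room temperature. The part of these differences in the collagen values of basal cells was not tested.

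Schwann cells, tested with the same lowered minimum, gave 3 calls among 9 members, all lower, against 2.66% of 864 genes. The low-count filter can be passed on the libraries of a single group. Col20a1, Col11a1 and Col27a1 passed it through the room-temperature libraries alone, so their direction was fixed by the filter and lends no support of its own. Col20a1, a FACIT, reached its highest level in this class and stood at no more than 6.27 CPM in any library of the other classes, although most of its 234 UMIs over the matrices lay outside Schwann cells. It had 1 and 0 UMIs in the 31 and 20 cells of the cold libraries and 31 and 17 UMIs in the 22 and 18 cells at room temperature. The cold libraries hold almost none of it. The ratio of the summed counts, cold over room temperature, was 0.0163, with an exact 95% interval from 0.000405 to 0.0954 that covers counting error only (edgeR adjusted p = 0.00213). Col3a1 stood at 249 and 321 CPM in cold and 1241 and 1182 CPM at room temperature (log2 change -2.09, SE 0.33, edgeR adjusted p = 0.00453), and Col1a1 at 176 and 214 CPM in cold and 827 and 489 CPM at room temperature (log2 change -1.75, edgeR adjusted p = 0.0435). Without the low-count filter 0 members were called in Schwann cells. Col1a1 lost its call without cold replicate 1 (-1.51) or room-temperature replicate 1 (-1.29). Col27a1 had 73.4 and 125 CPM in cold and 228 and 428 CPM at room temperature (log2 change -1.74, edgeR adjusted p = 0.0694), and Col11a1 had 73.4 and 53.5 CPM in cold and 290 and 204 CPM at room temperature (log2 change -1.90); neither passed. Of 7 Schwann markers compared, 4 were higher in both cold libraries, 2 were lower and 1 overlapped. The same shares over all genes were not computed for Schwann cells. Ncmap stood at 2069 and 2193 CPM in cold and 703 and 754 CPM at room temperature, and Cdh19, an adhesion gene of this lineage, had 367 and 339 CPM in cold and 745 and 550 CPM at room temperature. The part of these marker differences in the collagen values was not tested.

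In luminal hormone-sensing cells, the ductal cells that bear the receptors for oestrogen and prolactin, Col8a1 was the main collagen by share of UMIs. It stood at 163 and 161 CPM in cold and 134 and 243 CPM at room temperature, and the groups overlap (log2 change -0.16, SE 0.25). Col4a5 and Col4a6, neighbours on the X chromosome which lie head to head, were also found there, with Col4a5 at 28.5 and 28.6 CPM in cold and 34.1 and 26.3 CPM at room temperature. No member was called in these cells by edgeR, against 0.00786% of all genes called by edgeR in either direction. DESeq2 called 2 members, and the share of all genes that it called is not given. An unadjusted edgeR p under 0.05 was found for 9 of 23 members and for 1457 of all 12717 genes.

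In the 8 remaining classes tested, which include these cells, 3 member calls were made in all, each lower and each under 5% of the fibroblast level. They were Col3a1 in T cells (against 1.85% of genes called lower there), Col1a1 in macrophages (0.271%) and Col3a1 in natural killer cells (0.671%). The share of all genes called lower was 0.0141% in luminal alveolar progenitors, 0.0131% in dendritic cells and 0.0% in luminal hormone-sensing, B and group 2 innate lymphoid cells. Col3a1 in T cells stood at 9.57 and 4.32 CPM in cold and 103 and 34.5 CPM at room temperature, where fibroblasts stood at 1715 and 3228 CPM in cold and 11911 and 13635 CPM at room temperature. With a library left out, these classes gave 9 calls (cold replicate 1), 8 (cold replicate 2), 7 (room-temperature replicate 1) or 12 (room-temperature replicate 2). The 3 calls are noted as possible free RNA and are not read as expression; where these UMIs come from was not tested.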

How the data were processed

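The stromal vascular fraction was sequenced in 4 single-cell libraries, 2 from cold mice and 2 from mice at room temperature. The values used are the raw UMI counts per gene and barcode that the authors deposited. Per the file headers they come from Cell Ranger 3.0.2, and the submitters' processing notes also name Seurat and the builds mm10 and GRCm38; no source used here gives the annotation release. All barcodes hold at least 500 UMIs.

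Cells needed 500 genes and a mitochondrial share under 15%, and 74 to 239 cells per library that most resembled simulated doublets were removed (0.8% per 1000 cells). Leiden clustering at resolution 1 used 2000 variable genes, 30 principal components and 15 neighbours (leidenalg 0.10.2, igraph 0.11.9, scikit-learn 1.9.0, Python 3.11.15). A class name needed at least 3 of that type's markers at a log2 excess of 1 over the median cluster, each in 10% of the cells; clusters that matched several types or none, 1070 cells, were not used. UMIs were added up by class and library and tested with edgeR 4.0.16 in R 4.3.3 (TMM, filterByExpr, quasi-likelihood F-test, two-sided) where each library had at least 20 cells, or 15 for basal and Schwann cells, a limit chosen after seeing the data. The fits were tested on simulated data.

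The members, gene lists and markers were chosen with earlier results of these data known. Values per library are given for members called in a class, for members at 100 CPM or more, and for each member's highest class. Possible free RNA means that a member's highest library in a class lies under 5% of its mean level in its highest class. The alternatives were DESeq2 1.42.0, RLE scaling, all genes in place of filtered ones, other cell filters and clusterings, collagens left out of totals or clustering, a replicate block and leaving out each library. The values of 1 Schwann marker are not reported here.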

Additional observations from a re-analysis of the deposited data

Results flagged for a closer look

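The cold effect on 3 collagen genes differed between cell classes by the interaction test, with the library as a block. The difference for Col18a1 was -2.58 for fibroblasts minus vascular endothelium (SE 0.31, edgeR adjusted p = 0.0164) and -2.53 for fibroblasts minus pericytes and smooth muscle (SE 0.34, edgeR adjusted p = 1.14e-06). Both cold libraries lay below both room-temperature libraries in fibroblasts, while the groups overlapped in both other classes. The difference for Col15a1 was -1.77 against vascular endothelium (SE 0.24, edgeR adjusted p = 0.0256). These differences use pooled fibroblasts, and the log2 ratio of that class depended on its mix of clusters. Equal cluster weights gave -1.45 against -2.42 for Col15a1 and -1.73 against -2.41 for Col18a1. Against pericytes the fit gave -11.16 for Col15a1, a value that rests on 9 and 0 UMIs in the cold pericytes and 0 and 0 at room temperature and has no meaning as a size. The difference for Col5a3 was -2.23 against pericytes (SE 0.55, edgeR adjusted p = 0.0452), where the pericytes had 10 and 7 UMIs in cold and 10 and 7 at room temperature. Its call was lost without cold replicate 1 (-1.82), cold replicate 2 (-2.60) or room-temperature replicate 2 (-2.10). Equal cluster weights gave a fibroblast log2 ratio of -1.53 for Col5a3, against -2.14 in the class. Groups of 2 libraries are too small to look for single libraries that stand apart.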

How the results depend on the processing

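In fibroblasts, leaving out cold replicate 1 took away the most calls. The count of collagens called in fibroblasts, 16, ranged from 1 to 17 with a library left out, and the 16 genes stayed lower in every alternative; a left-out library's partner is assumed to vary like the other group. The replicate number as a block called 20, though same-numbered libraries share only a number (correlation of their deviations from the group means across 11613 genes 0.268). With a library left out, counts ranged from 0 to 1 in pericytes, 0 to 7 in basal cells, 7 to 12 in the other 8 classes (3 with all libraries), 5 to 14 in cluster 4, 4 to 14 in cluster 12, 0 to 11 for fibroblasts minus vascular endothelium, 1 to 4 for fibroblasts minus pericytes and 0 to 8 for the biosynthesis list.

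Without the low-count filter the counts were 1 in endothelium, 1 in pericytes, 7 in basal cells, 0 in Schwann cells, 30 in the other 8 classes, 15 in cluster 4, 14 in cluster 12, 12 for fibroblasts minus endothelium and 17 in the biosynthesis list. The replicate block gave 1 in basal cells, 5 in Schwann cells, 15 in the other 8 classes, 16 in cluster 4 and 20 in the biosynthesis list. DESeq2 gave 1 in basal cells and 8 in the other 8 classes, where keeping doublets gave 6. The share of all genes called is given for the main fit only, and not for any alternative, left-out libraries included. Counts under the alternatives are therefore not read as results about the collagens.

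Equal cluster weights, chosen after seeing the data, moved the log2 ratios of fibroblast sums to -0.46 (basement membrane), -1.57 (multiplexin) and -1.29 (transmembrane). In endothelium the FACIT ratio was -0.88 with doublets kept and ranged from -0.32 to 0.19 with a library left out. The beaded-filament ratio ranged from -0.51 to 0.42 and the short-chain ratio from -0.25 to 0.31, and it was -0.042 with the looser cell filter.

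Of the log2 changes of a gene in a class, 10 changed sign, in 15 values in all, none of a called gene. With a library left out, they ranged in fibroblasts from -0.0027 to 0.66 (Col4a4) and from -0.037 to 0.46 (Col4a3), and in endothelium from -0.50 to 0.77 (Col6a1). In pericytes the ranges were -0.93 to 0.12 (Col1a2), -0.99 to 0.48 (Col6a2), -0.25 to 0.15 (Col4a2) and -0.14 to 0.48 (Col18a1, which was -0.12 with the looser filter). In basal cells they were -0.38 to 0.21 (Col4a2), -0.87 to 0.00042 (Col18a1) and -0.17 to 0.074 (Col17a1). The cause was not tested. Few UMIs limit Col13a1 and Col7a1 in fibroblasts and all members in the smaller classes.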
